A study of Mus musculus with 10 samples.

Results

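Cytochrome P450 genes were followed in liver RNA of Tgfbr2+/- mice, which carry 1 knocked-out allele of the type II TGF-beta receptor gene, and of wild-type mice. The members are all genes on the array whose platform symbol is Cyp with a number and a letter, other than the Cyp2b and Cyp4a subfamilies and Cyp7a1, Cyp7b1, Cyp8b1, Cyp27a1, Cyp2d9 and Cyp51. This gave 64 genes, read by 72 probes, of 16383 named genes on the array, and they fall into 28 subfamilies. The data hold 10 libraries of total liver RNA, 6 from Tgfbr2+/- mice, titled Tgfbr-/+ males, and 4 from wild-type littermates, whose titles give no sex; all mice ate a chow diet. Each mouse was set on a 2-colour array against the same reference, RNA pooled from 6 wild-type livers. No age, strain or construction of the mutant allele is given in the sources used here, and the heterozygotes keep a wild-type copy in every cell. Values are log2 ratios over the pool, so a value of 1 is a level 2 times that of the pool, and differences are the mean of Tgfbr2+/- minus the mean of wild type.

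P450 enzymes are heme proteins that insert an oxygen atom into lipids, steroids, vitamins and foreign compounds. In hepatocytes most of them sit in the endoplasmic reticulum and take electrons from the reductase Por. Many of the liver genes lie in tandem clusters of close copies, are made mainly around the central vein, and respond to nuclear receptors such as PXR (Nr1i2) and CAR (Nr1i3), to the aryl hydrocarbon receptor and to the sex-specific rhythm of growth hormone.

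That the ratio is sample over pool is likely but not stated. It rests in part on the channel order, with the pool named first in each title and Cy3 the first dye. The design text gives dye swaps, so that order alone does not fix the direction of a column. The direction rests also on Tgfbr2. That gene's 2 probes together differed by -0.47 ± 0.12 (SE; limma adjusted p = 0.516, exact permutation p = 0.0143), singly by -0.88 ± 0.26 and -0.07 ± 0.09, and which probe lies in the altered part of the gene is not known here. The wild-type libraries lay between -0.07 and 0.37 for Tgfbr2. The library labelled Tgfbr2+/- replicate 4, at 0.05, lay among them, against its label, and the other heterozygous libraries lay between -0.50 and -0.18. Over all probes, correlations between libraries ran from -0.32 to 0.52, the lowest for wild-type replicate 1 (WT1) and Tgfbr2+/- replicate 5 (Het5). For Tgfbr2, WT1 was at 0.23 and Het5 at -0.49, each on the side of its own group as deposited. The low correlation still puts the direction of these columns in doubt, and results are also given with the sign of WT1 or of Het5 turned. The files hold ratios and no intensities, so how far a gene was above background is not known, and levels of different genes cannot be compared. In whole liver, fewer cells of a type and less RNA per cell cannot be told apart.

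No member passed the adjusted threshold, and those with the smallest p were all lower in heterozygous liver. By limma, 0 of 64 members had an adjusted p under 0.05, where the share over all genes was 0.0%. At an unadjusted p under 0.05 there were 7 members lower and 0 higher. Over all genes 5.54% had such a p, 2.57% lower and 2.97% higher, and the 7 make 10.9% of the members. They were Cyp3a25, Cyp3a16, Cyp3a59, Cyp2j5, Cyp2d22, Cyp2c54 and Cyp17a1, with limma adjusted p from 0.621 to 0.895. With Het5 turned 0 members had an unadjusted p under 0.05, although all 7 differences stayed negative. With WT1 turned the count was 5, of which 4 were among the 7 and the fifth was Cyp3a41a, without WT1 it was 4, and without both WT1 and Het5 it was 4. Without Tgfbr2+/- replicate 4, which lay among the wild-type libraries for Tgfbr2, it was 5. With single libraries left out, Cyp3a25, Cyp3a16 and Cyp2j5 kept an unadjusted p under 0.05 each time, and Cyp3a59 missed it without wild-type replicate 3 (limma unadjusted p = 0.0734). Cyp2c54 and Cyp17a1 each missed it when any 1 of 7 libraries was left out, with limma unadjusted p up to 0.107 and 0.144.

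Over all members the median difference was -0.034, against 0.004 over all genes. Differences were negative for 38 members and positive for 26, so 59.4% of the members and 47.4% of all genes were negative. With WT1 turned these shares were 67.2% and 45.8%, and with Het5 turned 51.6% and 48%. The differences ran from -0.93 for Cyp17a1 to 0.20 for Cyp2d40. Of the 8 members with a difference of at least 0.25 in size, 8 were negative, 12.5% of the members against 1.93% of all genes that were lower by as much. With WT1 turned 9 members and with Het5 turned 3 members were lower by that much, against 1.64% and 1.29% of all genes, and 0 were higher. In no member did the groups fail to overlap, a pattern that 1.08% of all genes showed. Members also varied more between mice than most genes, with a median SD of 0.12 in wild type and 0.16 in Tgfbr2+/-, against 0.09 and 0.11 over all genes. Whether probes of close copies read each other's transcripts was not tested.

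**Figure D1:**
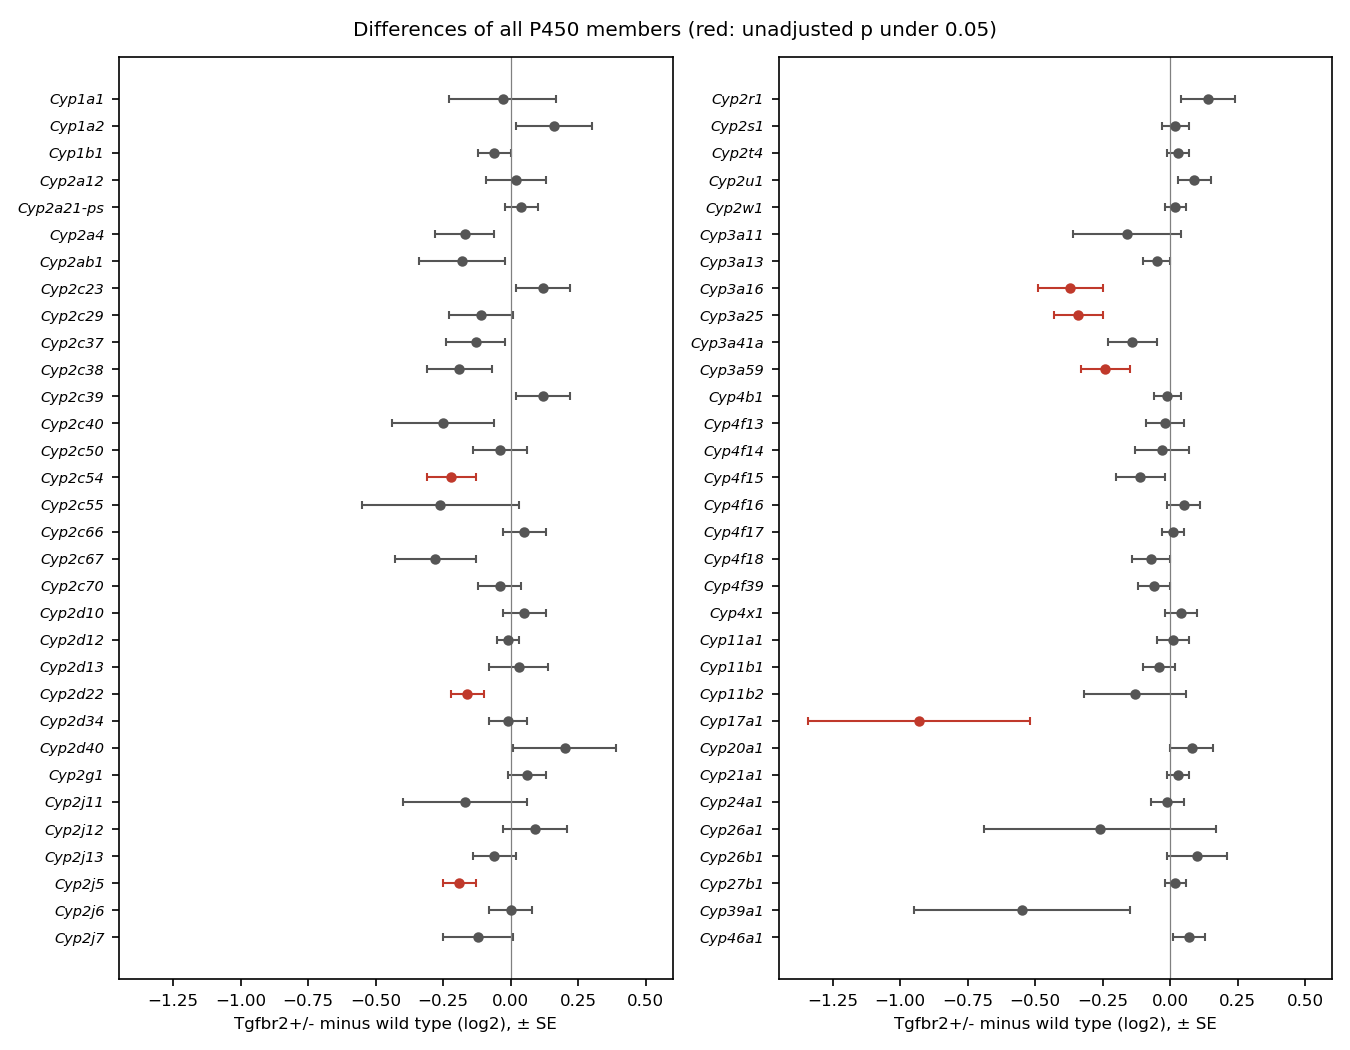
Difference of Tgfbr2+/- minus wild type for each of the 64 members on the log2 scale (x axis), with bars of 1 SE from limma, ordered by family; red points have an unadjusted p under 0.05. The 7 red points are all negative, and the longest bars belong to Cyp26a1, Cyp17a1 and Cyp39a1.

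The heterozygous libraries were unlike each other. In Tgfbr2+/- replicates 2 and 4, 20 and 19 of the 64 members lay more than 0.3 from the pool in either direction. The count was 8 to 12 in the other heterozygous libraries and 4 to 6 in wild type. How many of all genes lay that far was not counted, so these counts alone do not set the members apart. The median over the members was -0.15 in replicate 2 and -0.09 in replicate 4. It was between -0.05 and 0.02 in the other heterozygous libraries and between -0.04 and 0.03 in wild type. The median size of the ratio, without its sign, was 0.21 and 0.15 over the members in replicates 2 and 4. In the other heterozygous libraries it was 0.08 to 0.14, and in wild type 0.07 to 0.11. Over all genes that size was 0.10 and 0.09 in replicates 2 and 4. It was 0.05 to 0.10 in the other heterozygous libraries and 0.06 to 0.08 in wild type.

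The Cyp3a enzymes, which oxidise many drugs, steroids and bile acids, had negative differences in all 6 measured members, with a median of -0.20 and a range from -0.37 to -0.05. Cyp3a25, Cyp3a16 and Cyp3a59 had an unadjusted p under 0.05. The mean over the 6 genes ran from -0.19 to 0.10 in the wild-type libraries and from -0.41 to -0.07 in the heterozygous ones, so the groups overlapped. With WT1 or Het5 turned, the median difference was -0.28 or -0.14. When single libraries were left out it stayed between -0.28 and -0.16.

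The start regions of the measured Cyp3a genes are printed to show which of these genes are close copies. The 250 bases before the start, 5′ to 3′ on the gene's strand, are from RefSeq (GRCm38.p6), and a promoter was found there for 46 of the 64 members. Capitals mark the element CAAAGTCCA, a binding sequence of the hepatocyte factor HNF4, or the extended nuclear receptor half-site AAAGGTCA, searched on both strands; for Cyp3a25 the first of 2 listed starts is shown.
Cyp3a16, chr5:145469724-145469973, minus strand: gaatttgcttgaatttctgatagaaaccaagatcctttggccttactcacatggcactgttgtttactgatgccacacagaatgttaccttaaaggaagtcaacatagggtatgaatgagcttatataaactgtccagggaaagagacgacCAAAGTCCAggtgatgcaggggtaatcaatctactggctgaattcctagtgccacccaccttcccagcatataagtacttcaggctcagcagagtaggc
Cyp3a41a, chr5:145720137-145720386, minus strand: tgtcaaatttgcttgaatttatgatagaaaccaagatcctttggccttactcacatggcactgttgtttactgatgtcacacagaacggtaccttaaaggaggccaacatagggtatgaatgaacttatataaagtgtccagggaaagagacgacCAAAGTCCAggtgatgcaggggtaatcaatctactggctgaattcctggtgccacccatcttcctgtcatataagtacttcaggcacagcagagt
Cyp3a11, chr5:145879855-145880104, minus strand: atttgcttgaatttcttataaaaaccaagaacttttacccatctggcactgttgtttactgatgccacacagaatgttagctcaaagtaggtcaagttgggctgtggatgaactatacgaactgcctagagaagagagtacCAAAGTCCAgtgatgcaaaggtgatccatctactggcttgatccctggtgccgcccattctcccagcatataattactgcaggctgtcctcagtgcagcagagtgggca
Cyp3a25, chr5:146009619-146009868, minus strand: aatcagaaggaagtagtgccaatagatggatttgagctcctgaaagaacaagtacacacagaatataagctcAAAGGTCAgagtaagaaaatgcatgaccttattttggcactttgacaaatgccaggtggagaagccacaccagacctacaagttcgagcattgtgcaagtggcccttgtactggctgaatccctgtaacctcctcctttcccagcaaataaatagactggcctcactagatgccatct
Cyp3a59, chr5:146079008-146079257, plus strand: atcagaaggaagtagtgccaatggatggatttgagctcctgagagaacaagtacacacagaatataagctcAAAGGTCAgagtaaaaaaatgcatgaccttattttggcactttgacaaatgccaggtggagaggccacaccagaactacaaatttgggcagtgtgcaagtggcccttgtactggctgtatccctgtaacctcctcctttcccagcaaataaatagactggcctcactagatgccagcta
Cyp3a13, chr5:137921620-137921869, minus strand: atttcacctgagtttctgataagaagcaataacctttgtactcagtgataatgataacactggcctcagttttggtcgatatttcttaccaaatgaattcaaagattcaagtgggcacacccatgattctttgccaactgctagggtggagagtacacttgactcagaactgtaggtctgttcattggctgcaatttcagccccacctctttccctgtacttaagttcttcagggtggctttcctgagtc

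Cyp3a16 and Cyp3a41a shared 91.3% of aligned bases, and Cyp3a11 shared 76.6% with Cyp3a16 and 72.9% with Cyp3a41a. Cyp3a25 and Cyp3a59 shared 94.8% with each other and 52.2 to 57.4% with the other genes shown. CAAAGTCCA was found in Cyp3a16, Cyp3a41a and Cyp3a11, and AAAGGTCA in Cyp3a25 and Cyp3a59. Among windows of that length, 0.384% of 32851 promoters held CAAAGTCCA and 1.34% held AAAGGTCA. Among the 46 members with a promoter 6 and 4 did (13.0% and 8.7%), of which 3 and 2 were the Cyp3a genes just named. The 32851 promoters belong to 27025 symbols, some with several starts, while each member was counted with 1 start, so these shares are not alike. Neither element was found in the window of Cyp3a13. Whether these elements bear on the differences was not tested. In the RefSeq order of genes, Cyp3a16, Cyp3a41a, Cyp3a11, Cyp3a25 and Cyp3a59 follow each other with only other P450 genes between them, while 122 protein-coding genes lie between Cyp3a13 and Cyp3a16.

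Cyp3a25 was at 0.10, -0.14, 0.16 and 0.01 in wild-type replicates 1 to 4, and at -0.22, -0.39, -0.04, -0.31, -0.32 and -0.56 in Tgfbr2+/- replicates 1 to 6. Thus 5 of the 6 heterozygous libraries lay below every wild-type library, and replicate 3 lay among them. The difference was -0.34 ± 0.09 (SE), or 1.27-fold lower (limma unadjusted p = 0.00415, adjusted p = 0.621; exact permutation p = 0.0143). With WT1 turned it was -0.29 and with Het5 turned -0.23, where the unadjusted p was 0.143.

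Cyp3a59, the close copy of Cyp3a25, was at -0.04, -0.28, 0.11 and -0.08 in wild type and at -0.28, -0.46, -0.08, -0.43, -0.26 and -0.38 in Tgfbr2+/-. The lowest wild-type library, replicate 2, was at the level of Tgfbr2+/- replicate 1. The difference was -0.24 ± 0.09 (limma adjusted p = 0.797; exact permutation p = 0.0524). Wild-type replicate 3 was the highest library for both genes.

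Cyp3a16, known from fetal and female mouse liver, was at -0.06, -0.19, 0.23 and 0.18 in wild type and at -0.35, -0.42, -0.43, -0.59, -0.23 and 0.03 in Tgfbr2+/-. Replicate 6 alone of the heterozygous libraries lay within the wild-type range. The difference was -0.37 ± 0.12, or 1.29-fold lower (limma adjusted p = 0.718; exact permutation p = 0.0333), and -0.40 with WT1 turned or -0.29 with Het5 turned.

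Cyp3a11, the main PXR-induced drug-oxidising member of mouse liver, was at -0.33, -0.29, 0.09 and 0.14 in wild type and at -0.42, -0.44, 0.25, -0.88, -0.14 and 0.06 in Tgfbr2+/-. Its range in the heterozygotes enclosed that of wild type, and the difference was -0.16 ± 0.20 (limma adjusted p = 0.937). Cyp3a13, which is also made in the intestine, differed by -0.05 ± 0.05 (limma adjusted p = 0.934).

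Cyp3a41a, a form made in female liver, differed by -0.14 ± 0.09 (limma adjusted p = 0.919). It was -0.039 without wild-type replicate 4, -0.24 with WT1 turned and -0.056 with Het5 turned, and its 3 probes did not read alike. The differences of the single probes were -0.18, -0.14 and -0.10. Over the 10 libraries the first 2 followed each other (Pearson's r = 0.97, permutation p = 4e-05; Spearman's rho = 0.92, permutation p = 0.00053). The probe 10024415215 did not follow them (r = -0.23 and -0.14, rho = -0.60 and -0.52, permutation p from 0.0734 to 0.72). It followed the Cyp3a11 probe (r = 0.99, permutation p under 4e-05, and rho = 0.92, permutation p = 0.00045). Without the 2 libraries farthest from the median that r was 0.97. Over the 6 pairs of these 4 probes the adjusted p was 0.00012 for the r of both close pairs and 0.00159 for their rho. These pairs were picked with their values known, and the probe sequences were not used here. Cyp3a41a is therefore uncertain.

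The Cyp2c enzymes, which make epoxides of arachidonic acid and oxidise drugs, had negative differences in 9 of 12 members, with a median of -0.12. Cyp2c54 had an unadjusted p under 0.05. The library means ran from -0.12 to 0.04 in wild type and from -0.32 to 0.05 in Tgfbr2+/-. With WT1 turned the median difference was -0.15, with Het5 turned it was -0.043, and with single libraries left out it ran from -0.18 to -0.056, the smallest sizes being those without wild-type replicate 3 (-0.056) and Tgfbr2+/- replicate 2 (-0.06).

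Cyp2c54 was at 0.09, -0.26, 0.09 and 0.05 in wild type and at 0.05, -0.34, -0.18, -0.28, -0.39 and -0.25 in Tgfbr2+/-. Wild-type replicate 2 lay with the heterozygotes, and Tgfbr2+/- replicate 1 lay with wild type. The difference was -0.22 ± 0.09 (limma adjusted p = 0.876; exact permutation p = 0.0857), and -0.17 with WT1 turned or -0.093 with Het5 turned.

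Cyp2c67 and Cyp2c40, near each other in the Cyp2c cluster, differed by -0.28 ± 0.15 and -0.25 ± 0.19 (limma adjusted p = 0.917 and 0.92). Cyp2c67 was at 0.23, 0.19, -0.04 and -0.14 in wild type and at 0.27, -0.58, -0.35, -0.36, -0.29 and 0.03 in Tgfbr2+/-. Heterozygous replicates 1 and 6 were thus within or above the wild-type range and the other 4 lay below every wild-type library. These genes followed each other over the 10 libraries (r = 0.95, permutation p = 6e-05, and rho = 0.99, permutation p under 6e-05).

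Cyp2c38 and Cyp2c29, a pair of arachidonic acid epoxygenases, differed by -0.19 ± 0.12 and -0.11 ± 0.12 (limma adjusted p = 0.919 and 0.936). Cyp2c29 was at -0.14, -0.16, 0.12 and -0.03 in wild type and at -0.36, -0.41, -0.06, -0.18, -0.22 and 0.28 in Tgfbr2+/-. Replicate 6 was the highest library of all for this gene. Cyp2c55, inducible by drugs, had the widest range of the subfamily, from -1.26 in Tgfbr2+/- replicate 2 to 0.54 in replicate 6, and a difference of -0.26 ± 0.29 (limma adjusted p = 0.936). Cyp2c37, whose enzyme makes hydroxy acids of arachidonic acid, differed by -0.13 ± 0.11 (limma adjusted p = 0.928). With Het5 turned it was 0.014.

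The positive Cyp2c differences were those of Cyp2c39, Cyp2c23 and Cyp2c66. Cyp2c39, which also hydroxylates retinoic acid, was at 0.22, 0.32, -0.01, 0.23, -0.02 and -0.21 in Tgfbr2+/- against -0.13 to 0.03 in wild type, a difference of 0.12 ± 0.10 (limma adjusted p = 0.924). Cyp2c23, an epoxygenase best known in kidney, differed by 0.12 ± 0.10 (limma adjusted p = 0.931). In the order of genes 52 protein-coding genes lie between Cyp2c23 and Cyp2c70, and the other 11 measured members lie together with no gene but P450 genes between them.

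**Figure D2:**
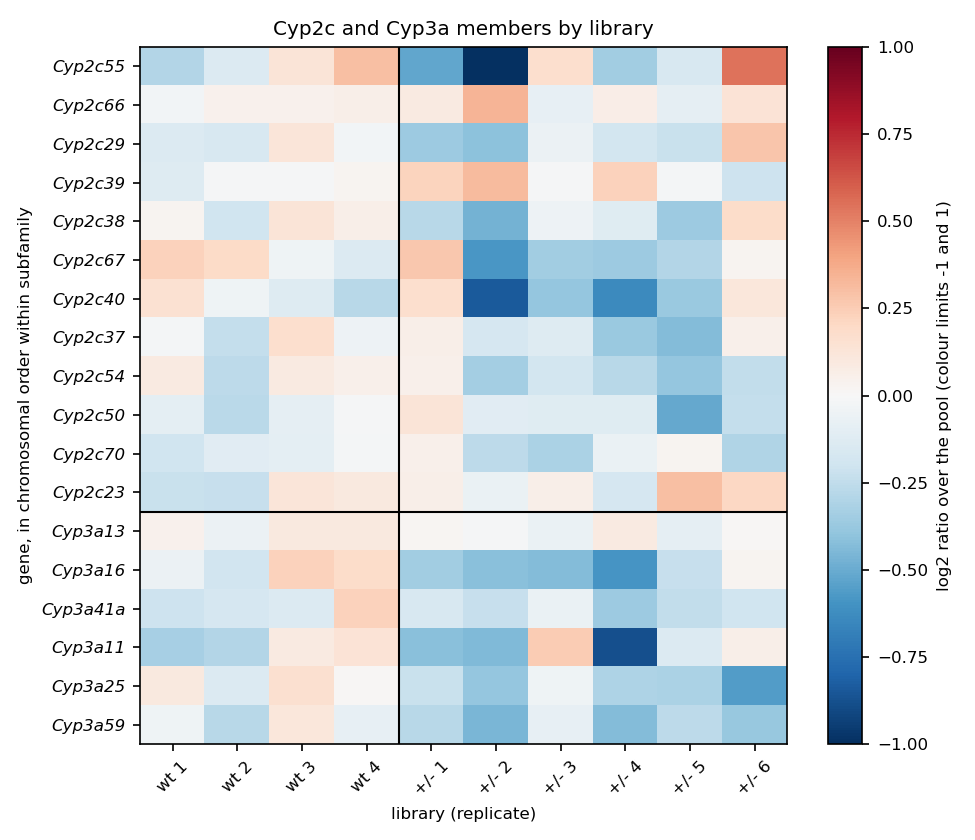
Log2 ratio over the pool (colour, limits -1 and 1) of the 12 Cyp2c and 6 Cyp3a members (rows, in chromosomal order within each subfamily) in the 4 wild-type and 6 Tgfbr2+/- libraries (columns). Tgfbr2+/- replicate 2 is the lowest library for Cyp2c55 at -1.26 and Tgfbr2+/- replicate 4 for Cyp3a11 at -0.88, while Tgfbr2+/- replicate 6 is the highest for Cyp2c55 at 0.54.

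How far copies of 1 subfamily followed each other was described over the 10 libraries for the 132 pairs within the 5 subfamilies of at least 5 members. The points of a pair share the library, and the group difference is part of the correlation. The median r was 0.20, and 6 pairs had a permutation p under 0.05 after adjustment over the 132. These were Cyp2c40 with Cyp2c67 (adjusted p = 0.00792), Cyp2c29 with Cyp2c38 (r = 0.90, adjusted p = 0.0198; rho = 0.96), Cyp3a25 with Cyp3a59 (r = 0.91, adjusted p = 0.0216; rho = 0.86), Cyp2c29 with Cyp2c55 (r = 0.89, adjusted p = 0.0277; rho = 0.90), Cyp2c38 with Cyp2c55 (r = 0.82, adjusted p = 0.0477; rho = 0.78) and Cyp4f13 with Cyp4f17 (r = 0.80, adjusted p = 0.0477; rho = 0.78).

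For rho, the adjusted permutation p of the 6 pairs was 0.00264, 0.00528, 0.0636, 0.0317, 0.157 and 0.157 in that order. Without the 2 libraries farthest from the median of the first gene, r was 0.93, 0.84, 0.92, 0.83, 0.79 and 0.68. Within the 6 heterozygous libraries alone r was 0.96, 0.94, 0.77, 0.90, 0.88 and 0.91. With WT1 turned r was between 0.83 and 0.92 for these pairs. With Het5 turned it was between 0.83 and 0.96 for all but the Cyp4f pair, at 0.57. In that pair Cyp4f17 spanned only 0.10 over the 10 libraries. By subfamily the median r was 0.45 in Cyp3a, 0.29 in Cyp4f, 0.17 in Cyp2c, 0.14 in Cyp2j and -0.04 in Cyp2d.

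**Figure D3:**
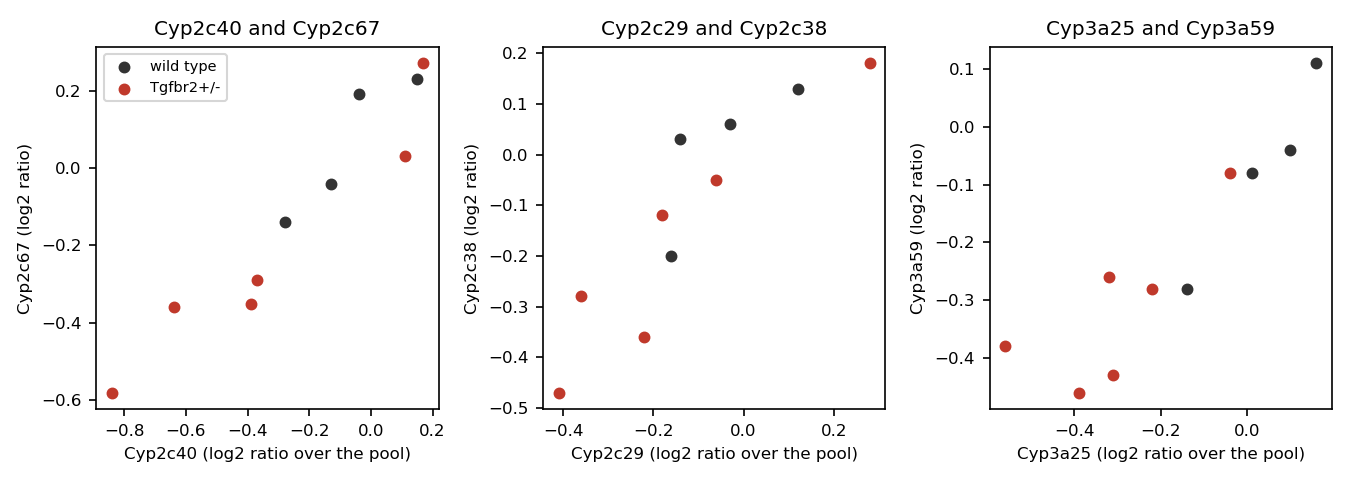
Log2 ratios over the pool of 3 pairs of close copies, 1 gene on each axis and 1 point per library (black, 4 wild type; red, 6 Tgfbr2+/-). Points rise along a line in each panel, with Pearson's r of 0.95, 0.90 and 0.91 from left to right, and the groups overlap along it.

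The Cyp2j subfamily, epoxygenases of arachidonic acid, held 6 members with a median difference of -0.091, of which 4 were negative. The median was -0.029 without wild-type replicate 3, -0.057 without Tgfbr2+/- replicate 6, -0.061 without Tgfbr2+/- replicate 4, and -0.051 or -0.052 with WT1 or Het5 turned. Cyp2j5, abundant in liver and kidney, was at 0.11, 0.15, 0.15 and 0.08 in wild type and at -0.12, -0.09, 0.07, 0.09, -0.19 and -0.18 in Tgfbr2+/-. The wild-type libraries lay close together, and heterozygous replicates 3 and 4 were near them. The difference was -0.19 ± 0.06, or 1.14-fold lower (limma adjusted p = 0.740; exact permutation p = 0.0143). It was -0.13 with either column turned. Cyp2j11 was at -1.25 in Tgfbr2+/- replicate 6 and between -0.50 and 0.15 in the other libraries.

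The Cyp2d subfamily, oxidases of drugs and steroids, held 6 members with 3 negative and 3 positive differences and a median of 0.01, or -0.056 with WT1 turned. Cyp2d22 was at 0.04, 0.07, -0.06 and -0.13 in wild type and at -0.13, -0.26, -0.10, -0.18, -0.10 and -0.30 in Tgfbr2+/-. All 6 heterozygous libraries were below the wild-type mean, and 4 of them below every wild-type library. The difference was -0.16 ± 0.06 (limma adjusted p = 0.797; exact permutation p = 0.0333), where limma's unadjusted p was 0.0628 without WT1 and 0.0674 without the second wild-type library. Cyp2d40 was at 0.68 and 0.57 in Tgfbr2+/- replicates 4 and 5 and between -0.30 and 0.12 in all other libraries, a difference of 0.20 ± 0.19 (limma adjusted p = 0.934). With Het5 turned it was 0.01.

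Of the Cyp2a genes, Cyp2a4, a steroid hydroxylase higher in females, differed by -0.17 ± 0.11 (limma adjusted p = 0.919), with wild type between -0.25 and 0.31 and Tgfbr2+/- between -0.37 and 0.12. Cyp2a12 and Cyp2a21-ps differed by 0.02 ± 0.11 and 0.04 ± 0.06. Of the single-gene Cyp2 subfamilies, Cyp2u1, a hydroxylase of long-chain fatty acids, was above the wild-type mean in all 6 heterozygous libraries, at 0.02 to 0.33 against -0.03 to 0.03. The difference was 0.09 ± 0.06 (limma adjusted p = 0.919; exact permutation p = 0.100), and Tgfbr2+/- replicate 2 was the highest. Cyp2r1, the vitamin D hydroxylase of liver, differed by 0.14 ± 0.10 (limma adjusted p = 0.920). Cyp2g1, an olfactory form, differed by 0.06 ± 0.07 (limma adjusted p = 0.934). Cyp2ab1, Cyp2s1, Cyp2t4 and Cyp2w1 differed by -0.18 to 0.03.

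Cyp17a1, the hydroxylase and lyase of steroid hormone synthesis, had a difference of -0.93, or of -0.51 with Het5 turned, where that of Cyp39a1 was -0.55. It was at 0.54, 0.72, -0.02 and -1.34 in wild type and at -1.09, -1.27, -0.49, -1.62, -1.24 and -0.02 in Tgfbr2+/-. Wild-type replicate 4 lay with the low heterozygous libraries, and heterozygous replicate 6 was at the level of wild-type replicate 3. The mean was -0.03 ± 0.93 (SD, n = 4) in wild type and -0.96 ± 0.59 (SD, n = 6) in Tgfbr2+/-. The difference was -0.93 ± 0.41 (SE), or 1.9-fold lower (limma adjusted p = 0.895; exact permutation p = 0.100). Without wild-type replicate 4 it was -1.37 (limma unadjusted p = 0.00165), without replicate 2 it was -0.68 (limma unadjusted p = 0.144), and with WT1 or Het5 turned the limma unadjusted p was 0.120 or 0.377.

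Cyp39a1, a hydroxylase of oxysterols on the way to bile acids, was at 0.35, 0.11, 0.37 and -0.30 in wild type and at -0.51, -1.11, -0.35, -1.51, 0.02 and 0.99 in Tgfbr2+/-. Heterozygous libraries were both the lowest and the highest. The difference was -0.55 ± 0.40 (limma adjusted p = 0.920; exact permutation p = 0.267), -0.37 with WT1 turned and -0.55 with Het5 turned. Tgfbr2+/- replicate 4 was the lowest library for both Cyp17a1 and Cyp39a1, and wild-type replicate 4 was the lowest wild-type library for both.

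**Figure D4:**
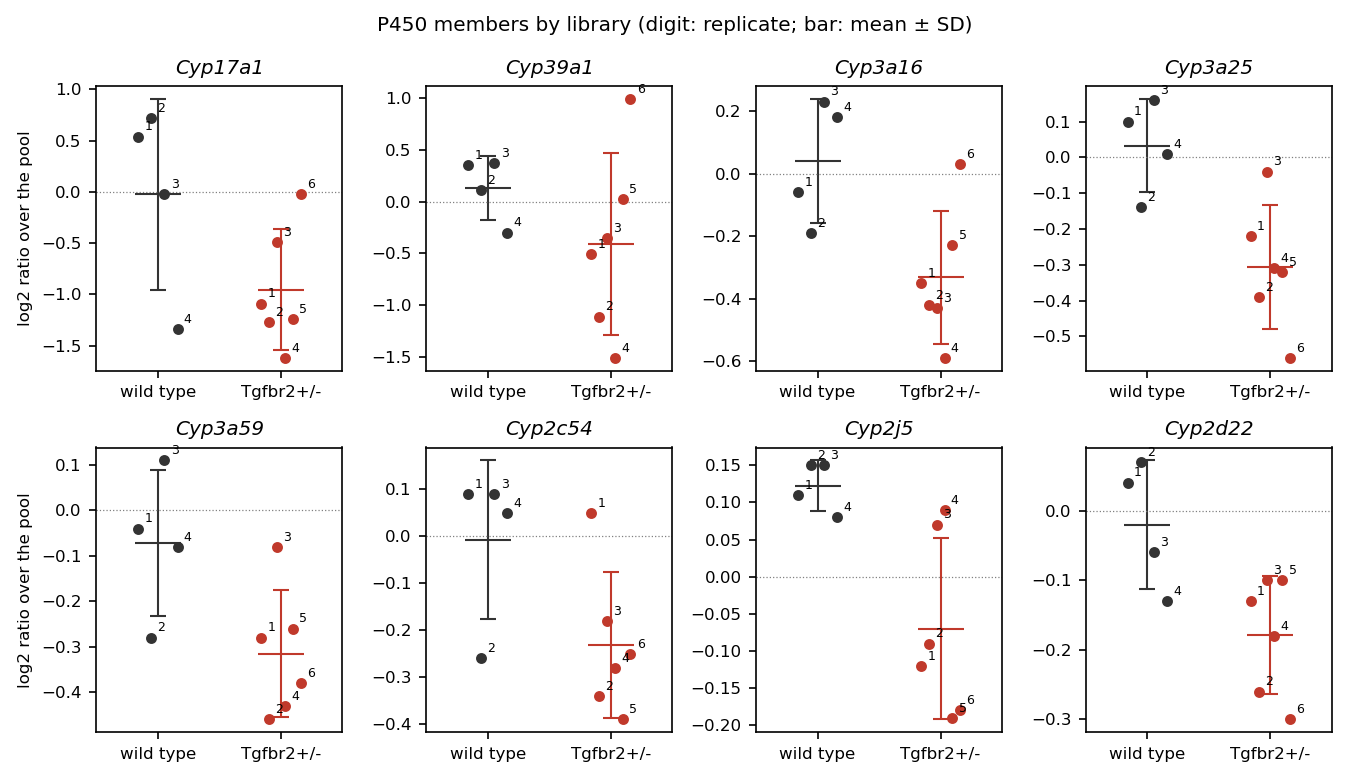
Log2 ratio over the pool (y axis, own scale in each panel) of 8 members in the 4 wild-type (black) and 6 Tgfbr2+/- (red) libraries; digits give the replicate and bars the mean with 1 SD. For Cyp17a1 wild-type replicate 4, at -1.34, lies among the heterozygotes, and for Cyp2j5 the wild-type libraries lie between 0.08 and 0.15.

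Cyp26a1, the retinoic acid hydroxylase that retinoids induce, was the most variable member in wild type, at -0.75, -1.48, 0.93 and -0.26. In Tgfbr2+/- it was at -0.51, -0.81, -1.00, 0.46, -1.21 and -0.83. The wild-type range held all heterozygous libraries, and the difference was -0.26 ± 0.43 (limma adjusted p = 0.955). Its direction rests on wild-type replicate 3, without which it was 0.18, and it was 0.14 with Het5 turned. Cyp26b1, the second retinoic acid hydroxylase measured, differed by 0.10 ± 0.11, and the vitamin D enzymes Cyp24a1 and Cyp27b1 by -0.01 ± 0.06 and 0.02 ± 0.04. Cyp46a1, the cholesterol hydroxylase of brain, and Cyp20a1 differed by 0.07 ± 0.06 and 0.08 ± 0.08 (limma adjusted p = 0.924 and 0.934), and Cyp20a1 by -0.076 with WT1 turned.

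The other steroid hormone enzymes are made in adrenal gland and gonads. Cyp11a1, Cyp11b1, Cyp11b2 and Cyp21a1 differed by 0.01 ± 0.06, -0.04 ± 0.06, -0.13 ± 0.19 and 0.03 ± 0.04, and Cyp11b2 by 0.074 without wild-type replicate 2. Adrenal and gonad markers outside the P450 family, of which 4 were measured, had a median difference of 0.07 and no member with an unadjusted p under 0.05.

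The aryl hydrocarbon receptor targets Cyp1a1, Cyp1a2, Cyp1b1 and Cyp2s1 had a median difference of -0.01, 2 in each direction. Cyp1a2, the main member of the family in uninduced liver, was at -0.39, -0.31, 0.29 and 0.12 in wild type and at 0.30, -0.24, 0.21, 0.00, 0.19 and 0.08 in Tgfbr2+/-. The difference was 0.16 ± 0.14 (limma adjusted p = 0.931), and -0.033 with WT1 turned. Cyp1a1 was at 0.56 in wild-type replicate 3, and from -0.31 to -0.16 in the rest of that group, and its difference was -0.03 ± 0.20 (limma adjusted p = 0.990), or 0.17 without that library.

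The Cyp4f genes, hydroxylases of leukotrienes and fatty acids, had 5 negative and 2 positive differences and a median of -0.033. Single libraries decide its size, which ran from -0.052 without wild-type replicate 3 to -0.0051 without Tgfbr2+/- replicate 4. Cyp4f14 was between -0.35 and 0.03 in wild type and between -0.29 and 0.12 in Tgfbr2+/-, a difference of -0.03 ± 0.10 (limma adjusted p = 0.982). Cyp4f16 differed by 0.05 ± 0.06 (limma adjusted p = 0.936), Cyp4b1 by -0.01 ± 0.05 and Cyp4x1 by 0.04 ± 0.06.

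Grouped by known control, members induced through CAR or PXR had negative differences in 7 of 7, with a median of -0.16 and 1 unadjusted p under 0.05, where 47.4% of all genes were negative and 2.57% were lower at such a p. With Het5 turned 5 of the 7 were negative, with a median of -0.09, and 0 had such a p, and with WT1 turned 7 were negative and 0 had such a p. Members higher in female mouse liver had negative differences in 6 of 7, with a median of -0.25 and 2 such p-values, those of Cyp3a16 and Cyp17a1. With Het5 turned 6 of the 7 were still negative, with a median of -0.13, but 0 had such a p. Cyp2a4 belongs to both lists. The mean over the female-biased members ran from -0.17 to 0.08 in wild type and from -0.66 to 0.05 in Tgfbr2+/-. The 4 measured Y-linked genes differed by a median of -0.01, at -0.03 to 0.04 in wild type and -0.10 to 0.02 in Tgfbr2+/-. The part of sex in these values was not tested, since only the heterozygous titles give one. Members made around the central vein had negative differences in 5 of 6, with a median of -0.12. It was 3 of 6 with Het5 turned and 6 of 6 with WT1 turned. The 5 negative ones, Cyp2c29, Cyp2c37, Cyp2c50, Cyp2c54 and Cyp3a11, are also in the CAR or PXR list, so this is not a separate set of genes.

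Of 25 measured regulators of liver P450 genes, 13 had positive and 12 negative differences, with 4 at an unadjusted p under 0.05, all higher, where 2.97% of all genes were higher at such a p, and 0 past the adjusted threshold. With WT1 turned 2 were higher at such a p, and with Het5 turned 0 were higher and 1 was lower. Ahrr, the repressor of the aryl hydrocarbon receptor, was at 0.01, -0.02, -0.11 and -0.14 in wild type and at 0.13, 0.04, 0.03, 0.08, 0.24 and 0.07 in Tgfbr2+/-. Each of the 6 heterozygous values was above the wild-type maximum, and the difference was 0.17 ± 0.05 (limma adjusted p = 0.718; exact permutation p = 0.00476, the smallest that 210 splits can give). Over all genes 1.08% had groups that did not overlap. With Het5 turned that library was the lowest of all, the groups overlapped and the difference was 0.085 (exact permutation p = 0.286). The fatty acid receptor Ppara differed by 0.18 ± 0.06 and the forkhead factor Foxa3 by 0.27 ± 0.09 (limma adjusted p = 0.732 for both), and by 0.12 and 0.20 with Het5 turned. The fourth, Nr0b2, a repressor of bile acid synthesis named after its values were seen, differed by 0.44 ± 0.14 (limma adjusted p = 0.732). The receptors PXR (Nr1i2) and CAR (Nr1i3), also named after their values were seen, differed by -0.15 ± 0.10 and -0.05 ± 0.06 (limma adjusted p = 0.920 and 0.939).

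Of 15 measured genes for electron supply and heme, 9 had positive and 6 negative differences, with a median of 0.03. The heme oxygenase Hmox1 differed by 0.25 ± 0.10 (limma adjusted p = 0.838) and was the only one with an unadjusted p under 0.05. With WT1 or Het5 turned it differed by 0.12 or 0.17 and none had such a p. The electron carriers Cyb5b and Cyb5r3 differed by 0.29 ± 0.13 and 0.28 ± 0.14 (limma adjusted p = 0.917 for both), and with WT1 turned by 0.11 and 0.086.

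Against the pool, 19 members were lower in Tgfbr2+/- at an unadjusted p under 0.05 and 7 higher, where the shares over all genes were 7.21% and 11.1%. In wild type 2 members were lower and 1 higher, where the shares over all genes were 2.01% and 2.13%. No member passed the adjusted threshold in either group, where 0.0122% of all genes did in Tgfbr2+/- and 0.0% in wild type. Both comparisons use the same pool, leave out its own spread and differ in their number of libraries. The 1 member higher than the pool in wild type was Cyp2j5, at a mean of 0.12. Cyp2d10 and Cyp2a12 were below the pool in both groups, at -0.21 and -0.23 in wild type and -0.16 and -0.20 in Tgfbr2+/-.

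Markers of other cells were set beside these values. Hepatocyte markers outside the family had a median difference of -0.01, 5 of 10 in each direction, with library means of -0.13 to 0.09 in wild type and -0.15 to 0.01 in Tgfbr2+/-. Kupffer cell and macrophage markers had a median of 0.39, positive in 11 of 13, where 47.4% of all genes were negative. Their library means were -0.22 to -0.09 in wild type and -0.02 to 0.26 in Tgfbr2+/-. With WT1 or Het5 turned these markers had a median of 0.25 or 0.29, positive in 13 or 10 of 13. Their part in the P450 values was not tested. Sinusoidal endothelial, stellate, bile duct, lymphocyte, neutrophil, erythroid, intestine, kidney and pancreas markers had medians from -0.07 to 0.07. The library means of the neutrophil markers were -0.15 to 0.07 in wild type and 0.05 to 0.30 in Tgfbr2+/-. Of these markers S100a9 and S100a8 differed by 0.79 and 0.33, and the others measured by -0.13 to 0.12.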

How the data were processed

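The deposited values are log10 ratios of mouse liver and pool. The labels' protocols give RNeasy purification with DNase, aminoallyl amplification and Cy3 and Cy5 labels, and the design text gives dye swaps. For scanner, background correction and normalization, the steps are not given in the sources used here. Base 10 (log10) was inferred, since 8 values lie at exactly 2 or -2, and column medians of 0.0013 to 0.0047 show the centring; scale and direction are not stated. Values were multiplied by 3.32 to log2. Of the probes, 17726 had 1 symbol, 50 several and 5662 none; probes of a symbol were averaged.

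Differences were fitted over all 16383 genes with limma 3.58.1 (lmFit, eBayes, two-sided, R 4.3.3) and Benjamini-Hochberg adjustment at 0.05. Single genes were compared by an exact two-sided permutation test over 210 splits, correlations by 100000 permutations. On simulated data with these spreads, the fit called 42% of 50 genes changed by 0.25, 80% by 0.5 and 100% by 1, and 6 of 16183 unchanged ones. The changed genes were drawn from all genes, with normal noise independent between genes and libraries. These shares therefore need not hold for the members, whose median SE was 0.09 against 0.07 over all genes.

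Named are Tgfbr2, the 10 members of smallest p in each direction, 16 well-known members, the 5 of largest wild-type SD and the 3 of smallest p in the partner and regulator lists; others are given in summaries or as named after their values were seen. Members and lists were chosen with earlier results of these data known. P-values measure the spread between these libraries, 1 per mouse by the labels, and the number of arrays limits the precision. Cyp2a5, Cyp2e1, Cyp2f2, Cyp3a44 and Cyp4v3 were not analysed here. Alternatives were libraries left out, turned columns, centring, quantile normalization, array weights, a robust prior, a replicate block, the pool as control and the median probe.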

Additional observations from a re-analysis of the deposited data

Results flagged for a closer look

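By Dixon's criterion 64 groups of named genes were examined, where chance gives about 1 in 20. Some genes were named for a large wild-type SD, Cyp11b2 among them, so the count cannot be set against that share. In 7 groups a single library stood apart from the rest of its group. In wild type these were Cyp2c54 in replicate 2 (-0.26, the others 0.05 to 0.09), Cyp3a41a in replicate 4 (0.23, the others -0.21 to -0.14), Cyp46a1 in replicate 2 (0.11, the others -0.02 to 0.0), Cyp1a1 in replicate 3 (0.56, the others -0.31 to -0.16) and Cyp11b2 in replicate 2 (0.72, the others -0.12 to -0.07). In Tgfbr2+/- they were Cyp2u1 in replicate 2 (0.33, the others 0.02 to 0.11) and Cyp11b2 in replicate 4 (-0.54, the others -0.06 to 0.19). Wild-type replicate 2 accounts for 3 of the 7.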

How the results depend on the processing

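The count of 0 members past the adjusted threshold held under every alternative run. The 7 lower and 0 higher members at an unadjusted p under 0.05 became 4 to 10 and 0 to 2 with single libraries left out, the lowest without wild-type replicate 1 and the highest without Tgfbr2+/- replicate 6. With Tgfbr2+/- replicate 5 turned there were 0 lower; without it and wild-type replicate 1 together, an alternative chosen after seeing the data, there were 4. With the heterozygous libraries fitted alone against the pool there were 16 lower and 3 higher, where 14.8% of all genes had such a p, against 5.54%. The replicate block, over replicates 1 to 4, gave 13 lower and 3 higher, where 9.27% of all genes had such a p, and those libraries without a pairing term, also added later, gave 8 lower and 1 higher, where 6.68% of all genes did. Whether equal numbers pair the mice is not settled, and the main fit holds no term for them. Deviations of same-numbered libraries correlated at only 0.09, 0.09, 0.30 and 0.01. Yet 6 of 8 libraries correlated best with their own number among the 4 of the other group. The Cyp2d median was -0.056 with wild-type replicate 1 turned, and the Cyp4f median -0.076 against the pool. The median difference of the members was between -0.036 and -0.017 with single libraries left out (-0.060 with WT1 turned, -0.012 with Het5 turned). Some named members, none with an unadjusted p under 0.05, changed sign: with WT1 turned Cyp1a2 to -0.033 and Cyp20a1 to -0.076 (-0.018 without WT1 and Het5), with Het5 turned Cyp2c37 to 0.014 and Cyp26a1 to 0.14, against the pool Cyp4f16 to -0.016, with quantile normalization Cyp1a1 to 0.022 and with array weights Cyp4f14 to 0.028. With single libraries left out Cyp1a1 ran from -0.12 to 0.17, Cyp4f14 from -0.12 to 0.0089, Cyp26a1 from -0.62 to 0.18 and Cyp11b2 from -0.21 to 0.074 (-0.24 without WT1 and Het5), positive for Cyp1a1 without 3 libraries (0.17, 0.052 and 0.019) and for Cyp4f14 without 2 (0.00028 and 0.0089). The cause of these changes was not tested. Without intensities, differences of members near background cannot be told from noise.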

Other observations

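Nr0b2, the small heterodimer partner that represses bile acid synthesis genes, was chosen here after its values were seen. It was at -0.21, -0.49, -0.37 and -0.16 in wild type and at 0.37, 0.27, -0.15, 0.09, 0.47 and -0.28 in Tgfbr2+/-, so 5 of the 6 heterozygous libraries lay above every wild-type library (exact permutation p = 0.0381). With Tgfbr2+/- replicate 5 turned it was 4 of the 6 (exact permutation p = 0.157), and with wild-type replicate 1 turned 3 (exact permutation p = 0.124). Alas1, the first enzyme of heme synthesis, also chosen after its values were seen, was at 0.66, -0.03, -0.26 and -0.54 in wild type and between -0.52 and 0.04 in Tgfbr2+/-, a difference of -0.21 ± 0.21 (limma adjusted p = 0.934), or 0.12 with wild-type replicate 1 turned.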
